A study of Xenopus tropicalis with 44 samples.

Results

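The genes for cyclins A, B, D and E were followed in whole embryos of the frog Xenopus tropicalis. Members were the rows of the deposited gene table whose names begin with ccn, then a, b, d or e, then a digit. There were 11 such rows of 28778 genes, and all 11 passed the filter on low counts that left 16064 genes for testing. Of these, 10 encode cyclins, namely ccna1, ccna2, ccnb1, ccnb1.2, ccnb2, ccnb3, ccnd1, ccnd2, ccne1 and ccne2. The row ccnb1ip1 encodes a cyclin B1 interacting protein and not a cyclin. The pattern does not take ccndx, a further cyclin D gene in the table, so values given for the cyclin D class cover ccnd1 and ccnd2 alone and the class is incomplete here.

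Cyclins bind and activate cyclin-dependent kinases (CDKs) and are named for their sharp rise and destruction in each cell cycle. Cyclin E with Cdk2 acts at the start of DNA replication, cyclin A in replication and entry into mitosis, cyclin B with Cdk1 in mitosis, and cyclin D with Cdk4 or Cdk6 in the response of the pre-replicative phase to growth signals. The frog egg carries large stores of cyclin A, B and E messenger RNA (mRNA) that drive rapid synchronous cleavages with almost no gap phases. From the mid-blastula onwards the embryo transcribes its own genes, maternal mRNAs are cleared, and the cell cycle lengthens.

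The 44 libraries fell into 22 groups of 2. E2F1 MO embryos received a morpholino against E2F1, an antisense oligomer that blocks use of a chosen RNA, here that of a transcription factor active in cell-cycle entry; they cover stages 3, 4, 5, 6, 7 and 8. E2F1 rescue embryos received E2F1 mRNA with that morpholino and cover stages 6, 7 and 8. OTX1 MO embryos received a morpholino against the homeodomain factor OTX1, and double MO embryos received both morpholinos, each at stages 7 and 8. Untreated wild-type (WT) embryos covered stages 3, 4, 5, 6, 7, 8, 9, 10 and 13, and were the comparison for every injected group. Stages 3, 4 and 5 were titled as embryos of 4, 8 and 16 cells. Embryos injected with a control morpholino were not analysed here, so injection itself and the morpholino cannot be told apart. Nothing in the labels states that the 2 libraries of a group are from different clutches, and p-values cover no more than the spread between them, possibly technical.

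Library totals ran from 9266513 to 37174326 counts with a median of 20541736. In E2F1 MO embryos e2f1 RNA stood at 404 and 411 CPM (counts scaled to library size) at stage 8, against 478 and 499 CPM in WT. In OTX1 MO embryos otx1 RNA stood at 189 and 182 CPM at stage 8, against 105 and 111 CPM in WT. A morpholino need not remove its target RNA, so these levels do not check the knockdown. In E2F1 rescue embryos e2f1 reached 35359 and 24772 CPM at stage 8; the labels name E2F1 mRNA among what was injected. CPM summed over sets of markers were scaled by total counts alone, unlike the other CPM values in this report. A set of 7 maternal RNAs summed to 170.2 and 170.3 CPM at WT stage 13, against 2170.0 and 2261 CPM at stage 3. Markers of ovarian follicle, blood and liver, of which 13 of 14 were in the table, summed to 19.9 and 20.1 CPM at WT stage 13, and to between 0 and 1.24 CPM in every library of stages 3 to 10. A set of 6 markers of early zygotic transcription summed to 15.1 and 16.1 CPM in E2F1 MO embryos at stage 7, against 0.288 and 0.386 CPM in WT. At stage 8 these zygotic markers summed to 17.5 and 17.6 CPM in E2F1 MO, 1.27 and 2.08 CPM in E2F1 rescue, 5.73 and 7.32 CPM in OTX1 MO, and 3.24 and 4.35 CPM in double MO, against 20.7 and 22.9 CPM in WT. Their part in the differences between injected and WT embryos given below was not tested.

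At the 4-cell stage the RNA of the cyclin genes followed here consisted almost wholly of cyclin A, B and E messages. ccndx and the cyclins of other classes were not counted in it. Levels between genes are compared in TPM, the counts divided by gene length and scaled to the same sum in each library. In WT at stage 3 the mean TPM was 6739 for ccnb1.2, 5368 for ccnb1, 4932 for ccnb2, 4512 for ccna1, 2435 for ccna2 and 1525 for ccne1. It was 74.8 for ccne2, 7.62 for ccnd2, 5.29 for ccnb3 and 4.71 for ccnd1. The first 7 of these genes kept their order in both libraries. Among the 3 lowest, ccnd2 lay above ccnd1 in both libraries, while the range of ccnb3, from 3.87 to 6.71 TPM, overlapped that of ccnd1, from 4.61 to 4.81 TPM.

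At stage 8 the same 6 genes led in the same order. In WT at stage 8 the mean TPM was 3300.1 for ccnb1.2, 2795 for ccnb1, 2721 for ccnb2, 2544 for ccna1, 2017 for ccna2 and 874 for ccne1, then 103 for ccne2, 47.5 for ccnb3, 13.8 for ccnd2 and 9.33 for ccnd1. At stage 10 it was 3149.6 for ccnb1.2, 1729 for ccna2, 1078 for ccnb2, 831 for ccne2, 758 for ccne1, 579.7 for ccnb1, 275 for ccnb3, 63.0 for ccna1, 37.8 for ccnd1 and 14.5 for ccnd2. No neighbours in either order overlapped between the libraries, and the place of ccna1 was the eighth at stage 10, against the fourth at stage 8.

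By stage 13 the order was different again. In WT at stage 13 the mean TPM was 708 for ccnb1.2, 379 for ccna2, 334 for ccne2, 238 for ccnb2, 183 for ccnb3, 161 for ccne1, 77.1 for ccnd1, 11.3 for ccnb1, 8.15 for ccna1 and 3.05 for ccnd2. No neighbours in this order overlapped between the libraries. The 10 cyclin genes together made up 0.139% of all counts in WT at stage 13, against 1.502% at stage 3. Their summed level was 2039.9 and 2165 TPM at stage 13, against 25322 and 25884 TPM at stage 3. In whole embryos, fewer cells of a type and less RNA per cell cannot be told apart, and RNA per embryo was not measured.

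**Figure D1:**
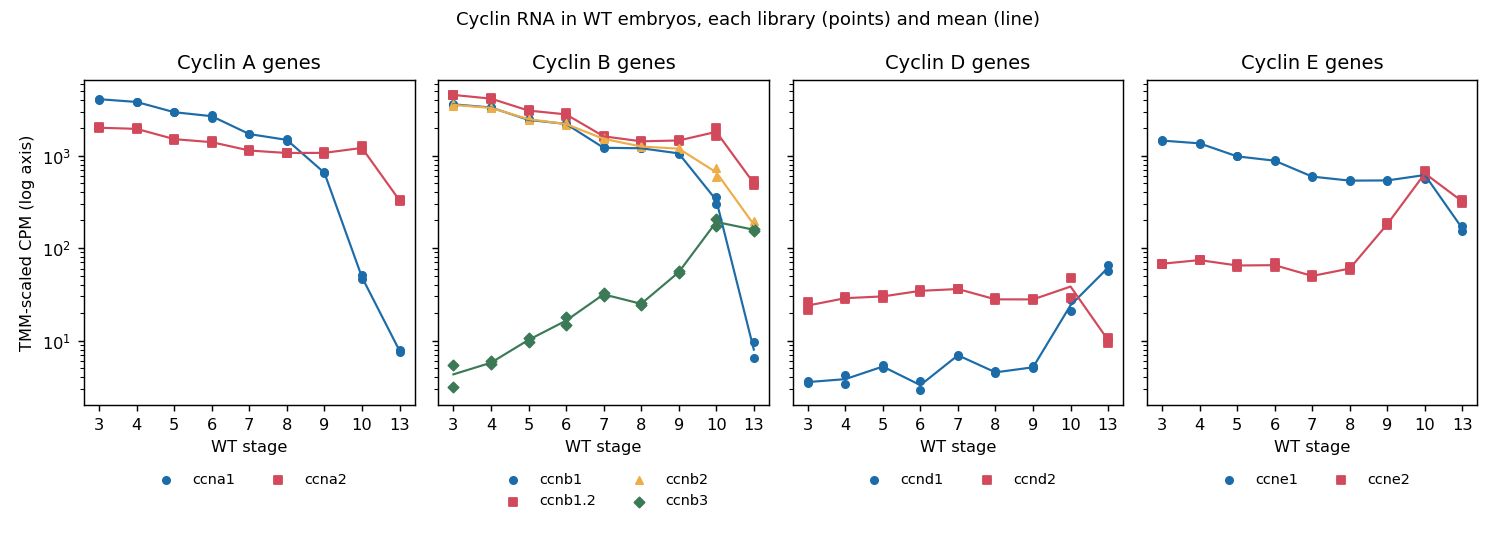
RNA level of the 10 cyclin genes in WT embryos. The x axis gives the 9 WT stages in order, not to time scale, and the y axis gives CPM scaled by library (TMM) on a log axis; points are libraries and lines join group means. In cyclin A and B, ccna1 and ccnb1 drop below 10 CPM at stage 13 while their relatives stay above 100 CPM; ccnb3 and ccnd1 climb, and ccne2 meets ccne1 at stage 10.

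The cyclin A class passed to a single gene. ccna1, the embryonic and germ-line cyclin A, was the more abundant message of the class in cleavage. Over WT stages 3, 4, 5, 6, 7, 8, 9, 10 and 13 its mean level was 4077, 3804, 2950.1, 2669, 1710.2, 1479.6, 652, 48.5 and 7.78 CPM. Its 2 libraries stood at 1502 and 1457 CPM at stage 8, 644 and 659 CPM at stage 9, 50.6 and 46.3 CPM at stage 10 and 7.56 and 7.99 CPM at stage 13. No 2 of these stages overlapped. ccna1 fell by 1.18 ± 0.05 on the log2 scale (SE) at stage 9 relative to stage 8, and was 13.4-fold lower at stage 10 than at stage 9 (log2 change of -3.74 ± 0.05; edgeR adjusted p = 5e-40). Over the whole course it was 522-fold lower at stage 13 than at stage 3 (log2 change of -9.03 ± 0.07; edgeR adjusted p = 7.2e-51).

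ccna2, the cyclin A of somatic cells, showed no such loss at stages 9 and 10. Its mean level over the same 9 stages was 2002, 1947, 1508, 1398, 1136, 1068, 1071, 1212 and 329 CPM. Between stages 8 and 9 it differed by 0.00 ± 0.05 on the log2 scale, and it was 3.69-fold lower at stage 13 than at stage 10 (edgeR adjusted p = 1.7e-29). The difference of 0.18 ± 0.05 at stage 10 over stage 9 (edgeR adjusted p = 0.0039) was -0.06 when libraries were scaled by total counts, and 0.09 (adjusted p = 0.21) without replicate 1 of stage 10, so no direction is given to that step.

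By share of the class, ccna1 held 65.0% of cyclin A TPM at stage 3, 55.8% at stage 8, 35.6% at stage 9, 3.52% at stage 10 and 2.11% at stage 13. The SD of these shares between libraries was at most 0.674 percentage points. A share within a class does not depend on how libraries are scaled to each other.

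**Figure D2:**
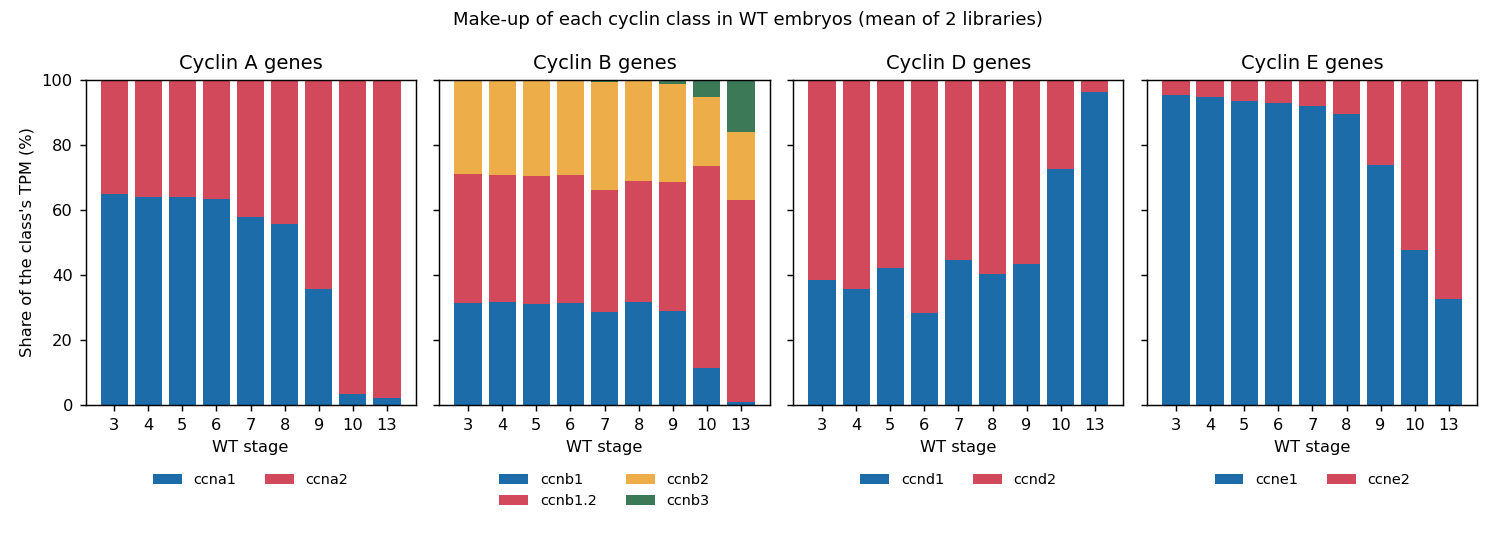
Share of each gene in the TPM of its cyclin class over the 9 WT stages, as stacked bars of the mean of 2 libraries, in % on the y axis; the cyclin D panel holds ccnd1 and ccnd2 and leaves out ccndx. ccna1, most of cyclin A at stages 3 to 8, holds 3.52% of it at stage 10, ccnb1 holds 0.985% of cyclin B at stage 13, and ccne2 holds 67.4% of cyclin E at stage 13.

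By share of its TPM, the cyclin B class lost ccnb1, kept ccnb1.2 as its largest member and gained ccnb3. ccnb1 and ccnb1.2 are close paralogs, and the sources used here do not tell how reads were split between them, which leaves their separate values uncertain. ccnb1 averaged 3586, 3315, 2434, 2201, 1215, 1202, 1058, 330.4 and 7.98 CPM over WT stages 3, 4, 5, 6, 7, 8, 9, 10 and 13. Its libraries stood at 1064 and 1051 CPM at stage 9, 359.95 and 301 CPM at stage 10 and 6.42 and 9.54 CPM at stage 13, with no overlap. It was 3.20-fold lower at stage 10 than at stage 9 (log2 change of -1.68 ± 0.07; edgeR adjusted p = 3.3e-24) and 40.5-fold lower at stage 13 than at stage 10 (log2 change of -5.34 ± 0.10; edgeR adjusted p = 6.2e-36). Its largest step between neighbouring stages was that at stage 13, while the largest step of ccna1 was that at stage 10. No stage between 10 and 13 was sampled, so these steps do not span the same number of stages.

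ccnb1.2 averaged 4531, 4135, 3070.3, 2793, 1617, 1428, 1458, 1808 and 503 CPM over the same stages. At stage 10 its libraries held 1985 and 1631 CPM, both above the 1435 and 1481 CPM of stage 9. The difference of 0.31 ± 0.06 on the log2 scale (edgeR adjusted p = 6e-06) was 0.07 (adjusted p = 0.25) with total counts. At stage 13 it was 3.59-fold lower than at stage 10, and its mean was 9.01-fold lower than at stage 3.

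ccnb2, a mitotic cyclin B, declined between these extremes. It averaged 3533, 3283, 2479, 2194, 1519.8, 1254, 1189.7, 659.6 and 179.8 CPM, and was 1.80-fold lower at stage 10 than at stage 9 and 19.6-fold lower at stage 13 than at stage 3 (edgeR adjusted p = 6.5e-40).

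ccnb3, a divergent cyclin B, ran the other way. It averaged 4.31, 5.76, 10.2, 16.4, 31.6, 25.0, 54.8, 192 and 158 CPM over the 9 stages. Its libraries held 2930 and 1592 counts at stage 10, against 85 and 53 counts at stage 3. ccnb3 was already 1.77-fold higher at stage 5 than at stage 4 (log2 change of 0.82 ± 0.18; edgeR adjusted p = 0.00041), 1.61-fold higher at stage 6 than at stage 5 and 1.92-fold higher at stage 7 than at stage 6. It was then 3.51-fold higher at stage 10 than at stage 9 (edgeR adjusted p = 8.8e-18) and 36.9-fold higher at stage 13 than at stage 3. The decline of 0.28 ± 0.10 at stage 13 relative to stage 10 (edgeR adjusted p = 0.015) lost its call with relative log expression factors (adjusted p = 0.45), and without replicate 1 of stage 10 or either library of stage 13 (adjusted p = 0.29, 0.12 and 0.055).

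By share of cyclin B TPM, ccnb1 held 31.5% at stage 3, 28.9% at stage 9, 11.4% at stage 10 and 0.985% at stage 13. ccnb1.2 held 39.5%, 39.6%, 62.0% and 62.1% at the same stages. ccnb2 held 28.9%, 30.3%, 21.2% and 20.8%. ccnb3 held 0.0311% at stage 3, 1.23% at stage 9, 5.42% at stage 10 and 16.1% at stage 13.

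Messages of ccnd1 and ccnd2 were scarce in cleavage, and by TPM ccnd1 was the more abundant of the pair from stage 10. By mean CPM, which is not divided by gene length, ccnd2 was still the higher at stage 10. The lengths used for TPM were 1515 bases for ccnd1 and 6303 bases for ccnd2. ccnd1, the cyclin D best known as a target of growth signals, averaged 3.56, 3.83, 5.24, 3.30, 6.94, 4.53, 5.14, 24.1 and 61.5 CPM over the 9 stages. Behind these values lay 53 to 240 counts per WT library at stages 3 to 9, and 251 to 853 counts at stages 10 and 13. ccnd1 was 4.64-fold higher at stage 10 than at stage 9 (log2 change of 2.21 ± 0.17; edgeR adjusted p = 3.6e-15), 2.58-fold higher at stage 13 than at stage 10 (edgeR adjusted p = 3.8e-11) and 17.3-fold higher at stage 13 than at stage 3. Before that it was called lower at stage 6 than at stage 5, a call lost without either stage 5 library or replicate 1 of stage 6 (adjusted p = 0.073, 0.16 and 0.24). It was higher at stage 7 than at stage 6 by 1.07 ± 0.18 (edgeR adjusted p = 3.8e-06), and lower again at stage 8 than at stage 7 by a log2 change of -0.61 ± 0.18 (edgeR adjusted p = 0.0041).

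ccnd2, the other cyclin D member, was lowest at stage 13. It averaged 23.9, 28.7, 30.0, 34.5, 36.1, 27.9, 27.9, 38.4 and 10.1 CPM. The stage 10 libraries differed widely, at 29.0 and 47.8 CPM, and without replicate 2 of stage 10 the difference from stage 9 was 0.06 in place of 0.43 on the log2 scale. ccnd2 was 3.69-fold lower at stage 13 than at stage 10 (edgeR adjusted p = 2e-14). ccnd1 made up 38.4% of the summed TPM of ccnd1 and ccnd2 at stage 3, 43.4% at stage 9, 72.7% at stage 10 and 96.2% at stage 13.

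The cyclin E class was handed over to ccne2. ccne1 averaged 1455, 1357, 982, 882, 593, 537, 539, 617 and 163 CPM over the 9 stages. ccne2 averaged 67.7, 74.2, 64.9, 65.3, 49.99, 60.1, 182, 641 and 319 CPM. Its mean at stage 8 lay below that at stage 3 by CPM but above it by TPM, so no direction is given to that span. The call of ccne2 as lower at stage 5 than at stage 4 was lost with total counts (-0.03, edgeR adjusted p = 0.81). The libraries of ccne2 held 58.1 and 62.2 CPM at stage 8, 186 and 178 CPM at stage 9, 681 and 602 CPM at stage 10, and 307 and 331 CPM at stage 13, with no overlap between any 2 of these stages. ccne2 was 3.02-fold higher at stage 9 than at stage 8 (log2 change of 1.60 ± 0.07; edgeR adjusted p = 1.1e-22) and 3.53-fold higher at stage 10 than at stage 9 (log2 change of 1.82 ± 0.06; edgeR adjusted p = 5.5e-27). It was 2.01-fold lower at stage 13 than at stage 10, and 4.71-fold higher at stage 13 than at stage 3.

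ccne1 was 8.93-fold lower at stage 13 than at stage 3 (edgeR adjusted p = 5.5e-37). Part of this decline was spread over several stages of cleavage. The rest came after stage 10, with a level 3.79-fold lower at stage 13 than at stage 10. Its difference at stage 10 from stage 9 (0.20 ± 0.06; edgeR adjusted p = 0.0027) was -0.04 with total counts and 0.04 without replicate 1 of stage 10. ccne2 held 4.68% of cyclin E TPM at stage 3, 10.6% at stage 8, 26.2% at stage 9, 52.4% at stage 10 and 67.4% at stage 13.

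ccnb1ip1 was close to the detection limit, with 0 to 14 counts in every library, and no fold is given for it. It had 12 and 4 counts at WT stage 10, and its call there was lost with total counts, with no filter and with DESeq2.

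Counted over neighbouring WT stages, 0 of 11 members were called at stage 4 against stage 3, where 8.81% of all genes tested were called. By edgeR's unadjusted p under 0.05 there were 4, and by DESeq2 0. At stage 5 against stage 4, 8 members were called (1 higher, 7 lower), which is 72.7% of the members against 27.3% of all genes (13.1% higher, 14.2% lower). At stage 6 against stage 5, 3 were called (1 higher, 2 lower) against 11.2% of genes (5.99% higher, 5.19% lower). There 6 were called with relative log expression factors (1 higher, 5 lower) and 8 with DESeq2 (1 higher, 7 lower), but 1 without either stage 5 library or replicate 1 of stage 6. At stage 7 against stage 6, 9 were called (2 higher, 7 lower) against 46.9% (24.1% higher, 22.8% lower). At stage 8 against stage 7, 8 were called (1 higher, 7 lower) against 44.1% of genes (21.1% higher, 23.1% lower), and without replicate 2 of stage 8 there were 5.

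At stage 9 against stage 8, 4 members were called (2 higher, 2 lower) against 24.5% of genes (13.1% higher, 11.4% lower), and the call of ccnb1 among them (-0.18 ± 0.06) was lost without any one of the 4 libraries. At stage 10 against stage 9 all 11 were called (8 higher, 3 lower) against 63.2% (32.7% higher, 30.6% lower), and with total counts 6 were (3 higher, 3 lower). At stage 13 against stage 10 all 11 were called (1 higher, 10 lower) against 76.9% of genes (40.6% higher, 36.3% lower). DESeq2 called 9 there, without ccnb3 and ccnb1ip1 (adjusted p = 0.55 and 0.085), and leaving out 1 library gave 9 to 11. The median change of the members there was -1.88 on the log2 scale, against 0.08 for all genes tested. Across longer spans, 9 were called at stage 9 against stage 3 (3 higher, 6 lower) against 71.2% of genes (39.7% higher, 31.5% lower). At stage 13 against stage 3, 10 were called (3 higher, 7 lower) against 86.5% (49.1% higher, 37.4% lower). Their medians were -0.90 and -2.61, against 0.22 and 0.49 for all genes. For stage 9 against stage 3, the call of ccnd1 was lost without either stage 3 library or replicate 2 of stage 9 (edgeR adjusted p = 0.081, 0.053 and 0.089). ccnd2, not called in that span, was called higher with total counts (0.78, edgeR adjusted p = 1.4e-06). It was also called higher without replicate 1 of stage 3 (0.38, edgeR adjusted p = 0.027).

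The WT course of a few other genes was most like that of one cyclin per class, chosen as the cyclin of widest range. Likeness was measured as Pearson's r of log2(CPM + 1) over the 9 WT stage means, as a description. It was taken among 10910 genes of at least 5 CPM at their highest WT stage. The members and rows with only an identifier or a provisional name were left out. The nearest to ccna1 were tbc1d8 (r = 0.9993), cpsf4l (0.9985) and nin (0.998), and to ccnb1 h1-8, the oocyte linker histone (0.9995), ppm1f and gtpbp6 (0.9989 each). The nearest to ccnd1 were ndufc2 (0.991), rpl37 (0.9903) and gli2 (0.99). Pearson's r takes no account of level or size of change. gli2 went from 0.0897 CPM at stage 3 to 159 CPM at stage 13, while the WT means of ccnd1 spanned 18.7-fold. The nearest to ccne2 were itpka (0.9925), tmem127 (0.9902) and mex3c (0.9869). Values within a stage share their libraries.

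Of 13 tested CDK partners and CDK inhibitors, 9 were called at stage 10 against stage 9 (5 higher, 4 lower; 63.2% of all genes called), a share near that of all genes. At stage 13 against stage 10, 12 were called (11 higher, 1 lower; 76.9% of genes). cdknx, the frog CDK inhibitor also called Xic1, rose by 2.79 ± 0.16 on the log2 scale at stage 10 over stage 9 and by 8.07 ± 0.20 at stage 13 over stage 3, with mean levels of 1.40 CPM at stage 3, 56.9 CPM at stage 10 and 377 CPM at stage 13. At stage 10 over stage 9, cks1b, a small subunit of CDKs, rose by 2.20 ± 0.16 and cdk6, a partner of cyclin D, by 2.10 ± 0.66, at means of 2.03 CPM at stage 10 and 0.456 CPM at stage 9. The CDK inhibitor cdkn2d fell by 1.02 ± 0.15.

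Of 14 tested genes of cyclin turnover, 12 were called at stage 10 against stage 9 (4 higher, 8 lower; 63.2% of genes), and 14 at stage 13 against stage 3 (4 higher, 10 lower; 86.5% of genes; median -0.80 against 0.49 for all genes). fbxo43, which encodes the inhibitor of the anaphase-promoting complex that holds the egg in metaphase, fell by 3.68 ± 0.10 at stage 10 relative to stage 9. ube2s, a ubiquitin-conjugating enzyme of that complex, fell by 1.74 ± 0.08, and fbxw7, an F-box protein of cyclin E turnover, fell by 1.54 ± 0.10. skp2, an F-box protein of cyclin and inhibitor turnover, rose by 1.38 ± 0.07. Of 20 tested other cyclin genes, 17 were called at stage 10 against stage 9 (7 higher, 10 lower; 63.2% of genes). cables1 fell by 2.76 ± 0.13, cntd2 by 1.97 ± 0.11 and ccno by 1.90 ± 0.16 there, while ccnf, encoding cyclin F, rose by 1.81 ± 0.10. At stage 13 against stage 3, ccnf rose by 5.24 ± 0.14, cables1 fell by 5.15 ± 0.16 and cntd2 fell by 4.80 ± 0.18.

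Before stage 7, 4 cyclin differences from WT were called in E2F1 MO embryos. At stage 3, 3 members were called lower in E2F1 MO than in WT, where 7.55% of all genes were called (3.26% higher, 4.3% lower). These were ccna1 (-0.14 ± 0.05), ccnb1 (-0.20 ± 0.06) and ccnb1.2 (-0.20 ± 0.06 on the log2 scale), with edgeR adjusted p of 0.041, 0.041 and 0.021. All 3 calls were lost with total counts, and each was lost when either WT library or replicate 1 of E2F1 MO was left out. At stage 4, 1 member was called, ccne2, 0.25 ± 0.07 lower (62.2 ± 1.68 CPM in E2F1 MO and 74.2 ± 0.738 CPM in WT, SD, n = 2 each; 3.13% of genes called, 2.16% higher and 0.971% lower), and this call was lost without any one library and with no filter (adjusted p = 0.06). DESeq2 called 5 members there and a fit of fewer libraries 7, all lower.

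At stage 5, 0 members were called in E2F1 MO against 3.24% of genes, and at stage 6, 0 against 1.95%. By edgeR's unadjusted p under 0.05 there were 0 and 2, and by DESeq2 0 and 0. In E2F1 rescue embryos at stage 6, 0 members were called relative to WT (3.01% of genes; 2 by unadjusted p and 1 by DESeq2), and 0 relative to E2F1 MO (0.131% of genes; 2 by unadjusted p and 0 by DESeq2).

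**Figure D3:**
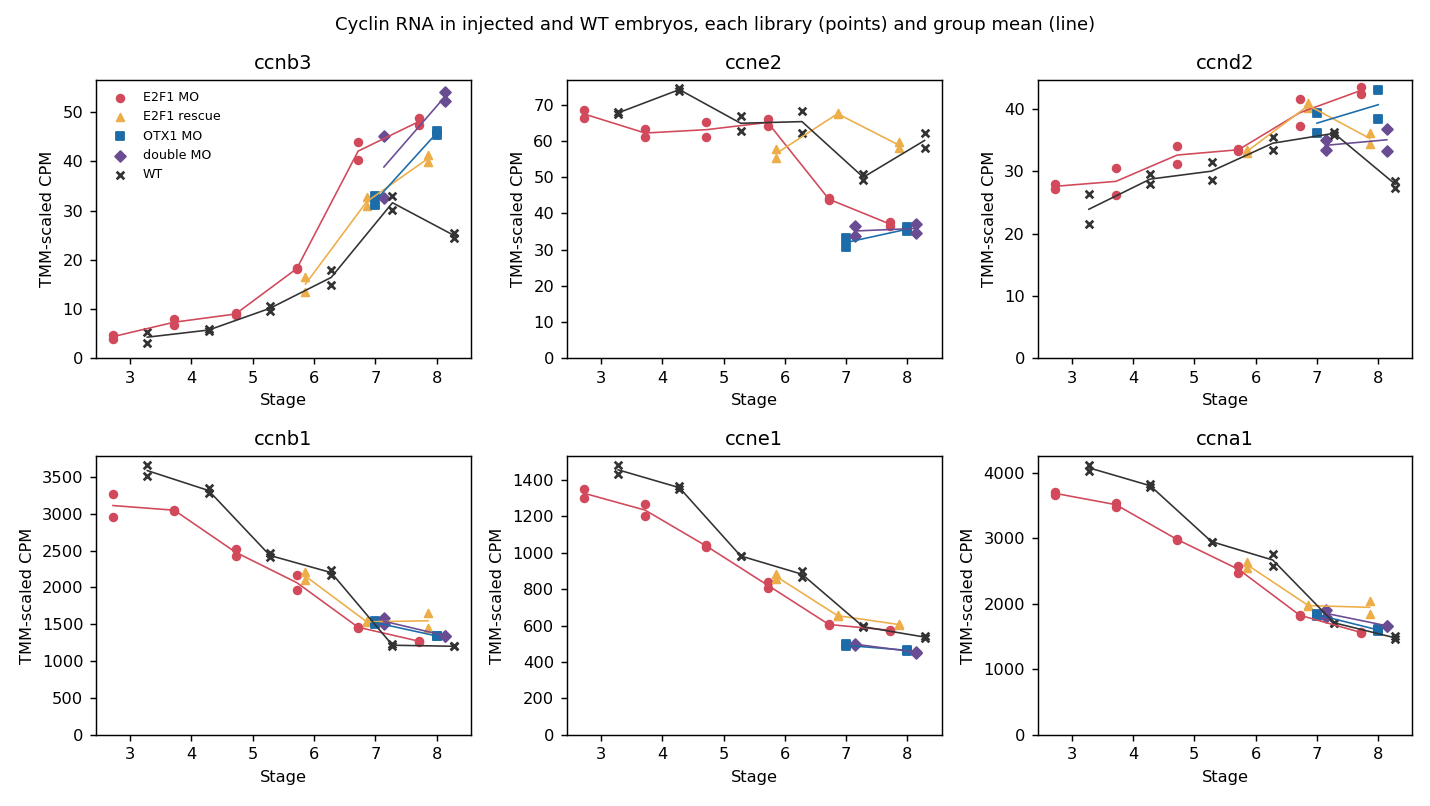
RNA level of 6 cyclin genes at stages 3 to 8, in CPM from 0 on the y axis, with the stage on the x axis; points are libraries, set side by side within a stage, and lines join group means of E2F1 MO, E2F1 rescue, OTX1 MO, double MO and WT. At stage 8 ccnb3 lies above WT in all 4 injected groups, and ccne2 lies at 34.6 to 37.5 CPM in E2F1 MO, OTX1 MO and double MO, against 58.1 and 62.2 CPM in WT.

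ccne2, the cyclin E that comes to lead the class, was the cyclin with the largest decline in the 3 morpholino groups at stage 8. Its libraries held 36.6 and 37.5 CPM in E2F1 MO, 36.3 and 35.1 CPM in OTX1 MO and 34.6 and 37.2 CPM in double MO, against 58.1 and 62.2 CPM in WT. The libraries of double MO overlapped those of both single morpholinos, and no morpholino library overlapped WT. The log2 changes relative to WT were -0.70 ± 0.07 in E2F1 MO (1.62-fold lower; edgeR adjusted p = 2.2e-11), -0.75 ± 0.07 in OTX1 MO (1.68-fold lower; edgeR adjusted p = 1.5e-12) and -0.75 ± 0.07 in double MO (1.68-fold lower; edgeR adjusted p = 1.8e-12).

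In E2F1 rescue embryos at stage 8 ccne2 stood at 59.7 and 58.0 CPM, overlapping the WT libraries. It differed from WT by -0.03 ± 0.07 (edgeR adjusted p = 0.77) and was 1.59-fold higher than in E2F1 MO (log2 change of 0.67 ± 0.07; edgeR adjusted p = 1.2e-10).

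At stage 7 ccne2 was ordered differently. Its libraries held 44.2 and 43.6 CPM in E2F1 MO, 67.7 and 67.3 CPM in E2F1 rescue, 33.3 and 30.7 CPM in OTX1 MO and 36.6 and 33.7 CPM in double MO, against 49.2 and 50.8 CPM in WT. E2F1 rescue was above WT by 0.43 ± 0.07 (edgeR adjusted p = 1e-06) and above E2F1 MO by 0.62 ± 0.07 (edgeR adjusted p = 2.4e-10). OTX1 MO differed from WT by -0.64 ± 0.07 (edgeR adjusted p = 1.1e-10) and double MO by -0.51 ± 0.07 (edgeR adjusted p = 2.9e-08). The change in E2F1 MO, -0.19 ± 0.07 (edgeR adjusted p = 0.018), lost its call without either E2F1 MO library (adjusted p = 0.061 and 0.087) or without replicate 2 of WT (0.11).

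The effect of E2F1 MO on ccne2 changed with stage. It was lower at stage 8 than at stage 7 by -0.51 ± 0.10 on the log2 scale (edgeR adjusted p = 2.8e-05), and the effect of E2F1 rescue was lower by -0.46 ± 0.09 (edgeR adjusted p = 0.00013). For OTX1 MO the difference between stages was -0.11 ± 0.10 (edgeR adjusted p = 0.44). For double MO it was -0.24 ± 0.10 (edgeR adjusted p = 0.053), and it was called with relative log expression factors, total counts, DESeq2 and fewer libraries (adjusted p = 0.024, 0.046, 0.019 and 0.044).

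The ccne2 change in double MO was not the sum of the changes in the single morpholino groups, each taken against untreated WT. On the log2 scale the interaction, which is the effect of adding E2F1 MO to OTX1 MO minus its effect without OTX1 MO, was 0.70 ± 0.10 at stage 8 (edgeR adjusted p = 1.4e-07) and 0.32 ± 0.10 at stage 7 (edgeR adjusted p = 0.0073). Double MO and OTX1 MO differed by 0.01 ± 0.07 at stage 8 (edgeR adjusted p = 1.0). The stage 7 interaction lost its call without replicate 2 of OTX1 MO (adjusted p = 0.059) or replicate 1 of double MO (adjusted p = 0.058). In every interaction given here, the effect without OTX1 MO sets injected against untreated embryos, while the effect within OTX1 MO compares injected groups. Injection itself and a joint effect of the morpholinos therefore cannot be told apart in it.

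ccne1, the abundant cyclin E of cleavage, was called lower in OTX1 MO and double MO. The stage 8 libraries held 467 and 460.2 CPM in OTX1 MO and 451 and 457 CPM in double MO, against 539.9 and 533 CPM in WT. In E2F1 MO it held 577 and 570.2 CPM, and in E2F1 rescue 608 and 602 CPM. The changes relative to WT were -0.21 ± 0.06 in OTX1 MO (edgeR adjusted p = 0.0016), -0.24 ± 0.06 in double MO (edgeR adjusted p = 0.00034), 0.10 ± 0.06 in E2F1 MO (edgeR adjusted p = 0.16) and 0.17 ± 0.06 in E2F1 rescue (edgeR adjusted p = 0.0094). The call of E2F1 rescue was lost without replicate 2 of WT (adjusted p = 0.057), and the change of 0.13 in E2F1 MO with total counts was called (adjusted p = 0.035). Tested directly, double MO was below E2F1 MO by a log2 change of -0.34 ± 0.06 at stage 8 (edgeR adjusted p = 3.9e-06) and -0.28 ± 0.06 at stage 7 (edgeR adjusted p = 6.2e-05).

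The share of ccne2 in cyclin E TPM at stage 8 was 6.37% in E2F1 MO, 9.30% in E2F1 rescue, 7.50% in OTX1 MO and 7.69% in double MO, against 10.6% in WT. The largest SD between libraries was 0.542 percentage points, in WT.

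ccnb3, the cyclin B that climbs through WT cleavage, was higher in all 4 injected groups at stage 8. Its libraries held 47.3 and 48.9 CPM in E2F1 MO, 41.2 and 39.9 CPM in E2F1 rescue, 45.3 and 46.1 CPM in OTX1 MO and 54.0 and 52.3 CPM in double MO, against 24.4 and 25.5 CPM in WT. Every injected library lay above both WT libraries. The log2 changes were 0.95 ± 0.12 in E2F1 MO (1.93-fold; edgeR adjusted p = 9.8e-09), 0.70 ± 0.12 in E2F1 rescue (1.62-fold; edgeR adjusted p = 4.5e-06), 0.87 ± 0.12 in OTX1 MO (1.83-fold; edgeR adjusted p = 3.6e-08) and 1.09 ± 0.12 in double MO (2.13-fold; edgeR adjusted p = 2.1e-10).

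In WT the level of ccnb3 was lower at stage 8 than at stage 7, at 24.4 and 25.5 CPM against 33.0 and 30.1 CPM, a call lost without replicate 1 of either stage (adjusted p = 0.14 and 0.12). At stage 7 it held 40.3 and 43.8 CPM in E2F1 MO, 30.9 and 32.7 CPM in E2F1 rescue, 32.9 and 31.1 CPM in OTX1 MO and 32.6 and 45.1 CPM in double MO. E2F1 MO was above WT there by 0.41 ± 0.11 (edgeR adjusted p = 0.0017) while E2F1 rescue lay below E2F1 MO by a log2 change of -0.40 ± 0.11 (edgeR adjusted p = 0.0029). At stage 8 that difference was -0.25 ± 0.11 (edgeR adjusted p = 0.071), and it was called with relative log expression factors, total counts, no filter and fewer libraries (adjusted p = 0.036, 0.03, 0.025 and 0.011). The call of double MO at stage 7 rested on replicate 2, and the change was 0.05 (adjusted p = 0.84) without it.

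Relative to WT, the effect on ccnb3 was larger at stage 8 than at stage 7 in each injected group. The difference between stages was 0.53 ± 0.16 for E2F1 MO (edgeR adjusted p = 0.0068), 0.69 ± 0.16 for E2F1 rescue (0.00088), 0.85 ± 0.16 for OTX1 MO (5.6e-05) and 0.79 ± 0.16 for double MO (0.00014). These tests share the WT libraries of stages 7 and 8. The interaction at stage 8 was -0.73 ± 0.16 (edgeR adjusted p = 0.00029), so double MO lay below the sum of the single effects. Each single effect was taken against untreated WT and holds any effect of injection.

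ccnd2 was also called higher in all 4 injected groups at stage 8. Its libraries held 42.4 and 43.6 CPM in E2F1 MO, 34.4 and 36.2 CPM in E2F1 rescue, 43.0 and 38.3 CPM in OTX1 MO and 33.3 and 36.9 CPM in double MO, against 28.5 and 27.3 CPM in WT. No injected library overlapped WT. The log2 changes were 0.62 ± 0.12 in E2F1 MO (edgeR adjusted p = 1.9e-05), 0.34 ± 0.12 in E2F1 rescue (0.016), 0.54 ± 0.11 in OTX1 MO (9.8e-05) and 0.33 ± 0.12 in double MO (0.016). The calls of E2F1 rescue and double MO were lost without replicate 2 of WT stage 8 (adjusted p = 0.092 and 0.095) and without replicate 2 of the injected group (0.082 and 0.13). The interaction was -0.84 ± 0.16 (edgeR adjusted p = 4.5e-05), the largest of any cyclin at stage 8. All 4 comparisons share the WT libraries of stage 8. In WT ccnd2 was lower at stage 8 than at stage 7, a call lost without replicate 2 of stage 8 (edgeR adjusted p = 0.067). At stage 7 ccnd2 was not called against WT in any injected group, except in E2F1 rescue with fewer libraries (0.17, edgeR adjusted p = 0.046).

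ccnd1 was measured on few counts, 77 to 240 in the WT libraries of stages 7 and 8. At stage 7 it held 5.00 and 4.68 CPM in OTX1 MO and 5.07 and 3.84 CPM in double MO, against 7.03 and 6.84 CPM in WT, with log2 changes of -0.52 ± 0.16 (edgeR adjusted p = 0.0073) and -0.64 ± 0.17 (edgeR adjusted p = 0.0012). Both calls were lost without replicate 2 of the injected group (adjusted p = 0.058 and 0.063). At stage 8 it was called 0.45 higher in E2F1 MO and in E2F1 rescue, with adjusted p of 0.036 and 0.041. The E2F1 MO call was lost without any one library and the E2F1 rescue call without 3 of the 4.

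**Figure D4:**
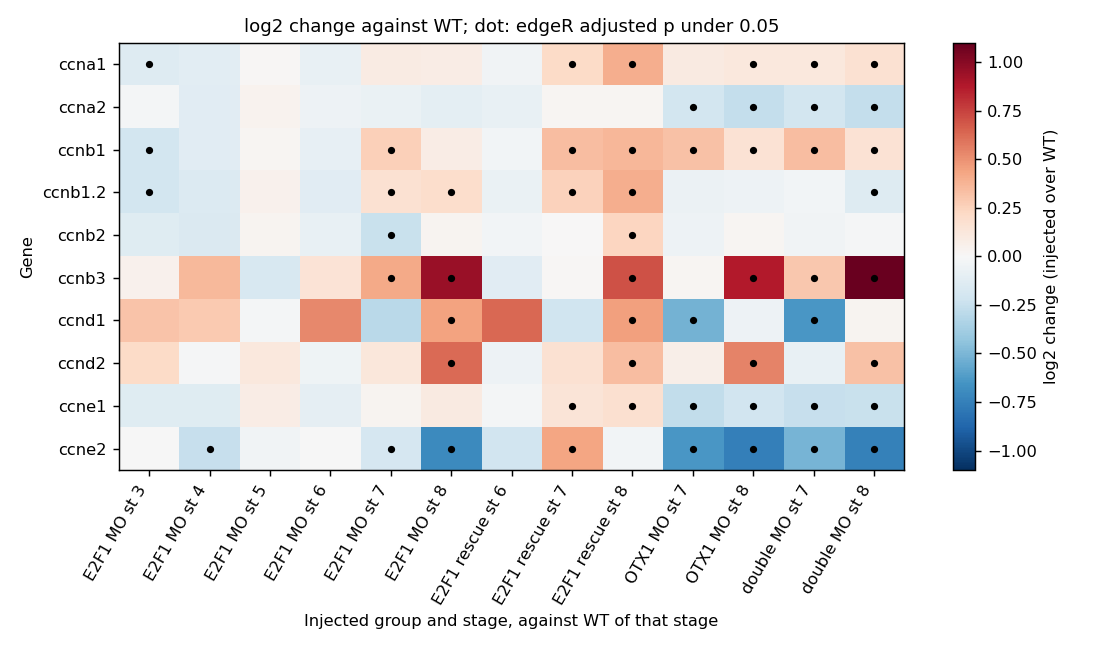
log2 change of the 10 cyclin genes (rows) in 13 comparisons of an injected group with WT of its stage (columns); red is higher and blue lower in the injected group, and a dot marks an edgeR adjusted p under 0.05. The deepest colours are ccnb3 and ccne2 at stage 8, from 1.09 for ccnb3 in double MO to -0.75 for ccne2 in OTX1 MO, while the columns of stages 3 to 6 hold 4 dots.

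The abundant cyclins of the A and B classes differed from WT by at most 0.40 on the log2 scale at stages 7 and 8. At stage 7 ccnb1 was higher in all 4 injected groups. Its libraries held 1451 and 1468 CPM in E2F1 MO, 1524 and 1543 CPM in E2F1 rescue, 1507 and 1538 CPM in OTX1 MO and 1502 and 1580.3 CPM in double MO, against 1229 and 1202 CPM in WT. The log2 changes were 0.26, 0.34, 0.33 and 0.34, each ± 0.06, with edgeR adjusted p of 0.00068, 5.7e-05, 4.4e-05 and 2e-05. The WT libraries that all 4 comparisons share were the lowest of the stage.

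At stage 8 ccnb1 was higher in E2F1 rescue by 0.36 ± 0.06 (edgeR adjusted p = 7.1e-06). The changes of 0.16 in OTX1 MO and in double MO (edgeR adjusted p = 0.034 and 0.03) were each lost without any one library, and that of E2F1 MO was 0.08 ± 0.06 (edgeR adjusted p = 0.33).

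ccnb1.2 was higher at stage 8 in the injected groups without OTX1 MO than in those with it. At stage 8 it held 1609 and 1649.5 CPM in E2F1 MO and 1959 and 1803 CPM in E2F1 rescue, but 1359.5 and 1386 CPM in OTX1 MO and 1297 and 1298 CPM in double MO, against 1435 and 1421 CPM in WT. The changes relative to WT were 0.19 ± 0.06 in E2F1 MO (edgeR adjusted p = 0.0044), 0.40 ± 0.06 in E2F1 rescue (edgeR adjusted p = 1.1e-07), -0.06 ± 0.06 in OTX1 MO (edgeR adjusted p = 0.42) and -0.14 ± 0.06 in double MO (edgeR adjusted p = 0.034, lost without any one library). Double MO lay below E2F1 MO by a log2 change of -0.33 ± 0.06 (edgeR adjusted p = 5.7e-06). The call of ccnb1.2 as higher in E2F1 MO than in WT at stage 7 was lost without any one library (edgeR adjusted p = 0.052 to 0.074).

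The ratio of the pair, which needs no scaling between libraries, set OTX1 MO and double MO apart from the other groups. The libraries of E2F1 MO and E2F1 rescue lay below those of WT at stage 7. Those of E2F1 MO lay above WT at stage 8, where the E2F1 rescue libraries overlapped WT. The ratio also moves with ccnb1, whose changes are given above. ccnb1.2 TPM over ccnb1 TPM at stage 7 was 1.23 ± 0.00858 in E2F1 MO, 1.25 ± 0.0107 in E2F1 rescue, 1.01 ± 0.00279 in OTX1 MO and 1.02 ± 0.0301 in double MO, against 1.32 ± 0.0122 in WT (SD, n = 2 each). At stage 8 it was 1.28 ± 0.0182 in E2F1 MO, 1.21 ± 0.0441 in E2F1 rescue, 1.02 ± 0.0116 in OTX1 MO and 0.958 ± 0.00271 in double MO, against 1.18 ± 0.00905 in WT. At both stages the libraries of OTX1 MO and double MO lay below all others. These ratios were looked at after the separate values were known and carry no test.

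ccna2 was lower in OTX1 MO and double MO. The stage 8 libraries held 898 and 883 CPM in OTX1 MO and 881 and 896 CPM in double MO, against 1064 and 1072 CPM in WT, with log2 changes of -0.26 ± 0.05 (edgeR adjusted p = 6.1e-05) and -0.27 ± 0.05 (edgeR adjusted p = 4.9e-05). At stage 7 the changes were -0.20 ± 0.05 in both groups (edgeR adjusted p = 0.0017 each). In E2F1 MO the stage 8 change was -0.11 ± 0.05 (edgeR adjusted p = 0.094). It was called with relative log expression factors and with DESeq2 (-0.13 each, adjusted p = 0.042 and 0.032). The stage 7 change in E2F1 MO was called with fewer libraries (-0.09, adjusted p = 0.039). At stage 8 double MO lay below E2F1 MO by -0.16 ± 0.05 (edgeR adjusted p = 0.016), a call lost when 3 of the 4 libraries were left out in turn.

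ccna1 was highest in E2F1 rescue. The stage 8 libraries held 2044 and 1849 CPM in E2F1 rescue, 1550.4 and 1575 CPM in E2F1 MO, 1592 and 1609.7 CPM in OTX1 MO and 1661 and 1669 CPM in double MO, against 1502 and 1457 CPM in WT. E2F1 rescue exceeded WT by 0.40 ± 0.05 (edgeR adjusted p = 9.5e-10) and E2F1 MO by 0.32 ± 0.05 (edgeR adjusted p = 3.2e-07). The E2F1 rescue libraries of stage 8 differed from each other most of any group, with a chi-square per gene of 30.9. The SE rests on a spread shared by all groups and may understate that of this group. Double MO exceeded WT by 0.17 ± 0.05 (edgeR adjusted p = 0.0014).

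ccnb2 was called in 2 comparisons with WT. It was lower in E2F1 MO at stage 7, at 1281 and 1291 CPM against 1534 and 1506 CPM in WT (-0.24 ± 0.06; edgeR adjusted p = 0.00097), and higher in E2F1 rescue at stage 8, at 1509 and 1438 CPM against 1274 and 1235 CPM in WT (0.23 ± 0.06; edgeR adjusted p = 0.0013). E2F1 rescue at stage 7 stood at 1528 and 1527 CPM, within the WT range.

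Set against the background of each comparison, the number of cyclins called was near that of other genes in several groups. In E2F1 MO, 5 members were called at stage 7 (3 higher, 2 lower; 45.5% of members against 47.2% of genes, 25.3% higher and 22% lower; 3 without replicate 2 of WT or either E2F1 MO library) and 5 at stage 8 (4 higher, 1 lower; 45.5% against 49.8% of genes, 26.2% higher and 23.7% lower). In E2F1 rescue, 5 were called at stage 7 (all 5 higher; 33.3% of genes called, 16.5% higher and 16.8% lower) and 8 at stage 8 (all 8 higher; 52.2% of genes called, 27% higher and 25.2% lower), with medians of 0.14 and 0.34 over the members against 0 for all genes. Without replicate 2 of WT stage 8, 5 were called there, all higher.

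In OTX1 MO, 5 members were called at stage 7 (1 higher, 4 lower; 49.2% of genes, 25.3% higher and 23.9% lower) and 7 at stage 8 (4 higher, 3 lower; 54.6% of genes, 28.1% higher and 26.4% lower). In double MO, 7 were called at stage 7 (3 higher, 4 lower; 50.3% of genes, 25.6% higher and 24.7% lower) and 8 at stage 8 (4 higher, 4 lower; 55.2% of genes, 28% higher and 27.2% lower). Without replicate 2 of double MO, 4 were called at stage 7 and 5 at stage 8, and 5 also at stage 8 without replicate 2 of WT.

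Between injected groups, E2F1 rescue against E2F1 MO gave 4 calls at stage 7 (3 higher, 1 lower; 43.4% of genes, 20.1% higher and 23.3% lower) and 6 at stage 8 (5 higher, 1 lower; 39.9%, 20.1% higher and 19.8% lower), with 2 calls at stage 8 without replicate 1 of E2F1 rescue. Double MO against E2F1 MO gave 5 calls at stage 7 (1 higher, 4 lower; 44.6%, 20.5% higher and 24.1% lower) and 5 at stage 8 (0 higher, 5 lower; 43.2%, 20.9% higher and 22.3% lower), with 2 calls at stage 8 without replicate 1 of double MO or without either E2F1 MO library. Double MO against OTX1 MO gave 0 calls at stage 7 and 0 at stage 8, where 3.74% and 2.68% of genes were called. By edgeR's unadjusted p under 0.05 there was 1 at each stage, and by DESeq2 0 at each. Among the 10 cyclins, the largest difference between those 2 groups was 0.28 ± 0.11 for ccnb3 at stage 7 (edgeR adjusted p = 0.18). Without replicate 1 of double MO it was 0.49 and called (adjusted p = 0.0046).

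The interaction of the morpholinos, which holds any effect of injection itself, was called for 3 members at stage 7 (34.3% of genes) and 4 at stage 8 (35.9%). Effects relative to WT differed between neighbouring stages for 0 members in E2F1 MO at stage 4 minus stage 3, stage 5 minus stage 4 and stage 6 minus stage 5 (0.853%, 0.112% and 0% of genes; 1, 7 and 2 by unadjusted p, and 0 by DESeq2). They differed for 4 at stage 7 minus stage 6 (29.5%) and 5 at stage 8 minus stage 7 (39% of genes). In E2F1 rescue they differed for 5 and 5 members over the same steps (18.3% and 35.3%), in OTX1 MO for 2 at stage 8 minus stage 7 (31.8%), and in double MO for 3 (32.1%).

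Genes that act with the cyclins were called in both directions in the injected groups, often at shares near those of all genes. In E2F1 MO at stage 7, 8 of 13 CDK partners and inhibitors were called (3 higher, 5 lower; 47.2% of all genes). The CDK inhibitors cdkn2c, at a mean of 0.0438 CPM in WT, and cdkn1a were among the higher, by 2.83 ± 0.94 and 1.07 ± 0.26 on the log2 scale. cks1b fell by 2.45 ± 0.19 and cks2, a like subunit, fell by 2.19 ± 0.09 on the log2 scale. cks2 also fell by 1.76 ± 0.09 in OTX1 MO and by 1.41 ± 0.09 in double MO at that stage, where 7 (2 higher, 5 lower; 49.2% of genes) and 6 (2 higher, 4 lower; 50.3% of genes) of the 13 were called. In E2F1 rescue it fell by 0.78 ± 0.09, among 4 called (1 higher, 3 lower; 33.3% of genes).

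At stage 8, 49.8% of all genes were called in E2F1 MO, 52.2% in E2F1 rescue, 54.6% in OTX1 MO and 55.2% in double MO. Of the same 13 genes, 5 were called in E2F1 MO (3 higher, 2 lower), 8 in E2F1 rescue (5 higher, 3 lower), 8 in OTX1 MO (5 higher, 3 lower) and 9 in double MO (6 higher, 3 lower). In E2F1 MO cdkn2d rose by 1.37 ± 0.12 and cks1b fell by 1.24 ± 0.20. cdk1, the mitotic kinase, rose by 0.69 ± 0.10 in E2F1 MO, 0.98 ± 0.10 in E2F1 rescue, 0.43 ± 0.10 in OTX1 MO and 0.84 ± 0.10 in double MO. Of 14 turnover genes, 8 were called in E2F1 MO (5 higher, 3 lower), 8 in E2F1 rescue (7 higher, 1 lower), 7 in OTX1 MO (5 higher, 2 lower) and 11 in double MO (7 higher, 4 lower), against the same shares of all genes. fbxo5, an inhibitor of the anaphase-promoting complex, rose by 1.29 ± 0.12 in E2F1 MO and by 0.88 ± 0.12 in E2F1 rescue. fzr1, the activator of the anaphase-promoting complex outside mitosis, rose by 0.69 ± 0.06 in E2F1 MO, 0.64 ± 0.06 in E2F1 rescue, 0.77 ± 0.06 in OTX1 MO and 0.77 ± 0.06 in double MO.

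Of the 20 other cyclin genes at stage 8, 13 were called in E2F1 MO (9 higher, 4 lower), 15 in E2F1 rescue (10 higher, 5 lower), 17 in OTX1 MO (6 higher, 11 lower) and 15 in double MO (6 higher, 9 lower), against the 49.8%, 52.2%, 54.6% and 55.2% of all genes in these groups. cntd2 rose in all 4 groups, by 1.13 ± 0.08 in E2F1 MO, 1.29 ± 0.08 in E2F1 rescue, 1.31 ± 0.08 in OTX1 MO and by more in double MO. ccnk, a cyclin of transcriptional CDKs, fell by 1.71 ± 0.07 in OTX1 MO, 1.80 ± 0.07 in double MO and 0.84 ± 0.07 in E2F1 rescue, and rose by 0.18 ± 0.07 in E2F1 MO. ccno fell by 1.77 ± 0.14 in E2F1 MO, 1.32 ± 0.14 in E2F1 rescue, 1.61 ± 0.14 in OTX1 MO and 1.59 ± 0.14 in double MO. The median change over all genes tested was 0 in each of these comparisons.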

How the data were processed

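Messenger RNA of whole embryos was sequenced, and the authors deposited raw counts per gene with gene lengths. Per the submitters' processing notes the tools were fastp, STAR 2.7.0e, featureCounts 2.0.1 and deepTools; genome build, annotation and strand setting: not given in the sources used here. From the counts, edgeR 4.0.16 (R 4.3.3) fitted all 44 libraries in 1 model with a mean per group, TMM scaling, and a filter with a minimum count of 10. That left 16064 genes and 22 residual degrees of freedom. Quasi-likelihood F tests were adjusted by Benjamini-Hochberg over all genes tested in each of 41 comparisons, and called at an adjusted p of 0.05. SE was taken as the log2 change over the square root of F. The biological coefficient of variation was 6.11%. CPM values are TMM-scaled, except the summed CPM of marker sets, which were scaled by total counts alone. TPM was computed here from the deposited counts and lengths. RNA per embryo was not measured, since libraries hold relative amounts.

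Every row matching the name rule is described, and the genes named from pathway lists are among the 4 called genes of largest change in a comparison. Values in other groups are given for some of these genes only. Genes most like a cyclin were taken over the 9 WT stages. Members, lists and alternatives were chosen with earlier results of these data known. The lists held other cyclin genes, CDK partners and inhibitors, and cyclin turnover genes, with 20, 13 and 14 tested. Replicate libraries differed by more than sampling noise, with a chi-square per gene of 1.4 to 30.9. The largest values were 30.9 in E2F1 rescue at stage 8, 13.4 in WT at stage 10 and 12.9 in double MO at stage 7. Each library was treated as 1 sample, and this spread does not show whether the libraries are biologically independent. Alternatives were relative log expression factors, total counts, no filter, DESeq2 1.42.0, fits of fewer libraries, a replicate block, and leaving out each library. The main edgeR fit was tested on simulated data for 1 comparison. No such test is given here for the other comparisons or for the alternatives.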

Additional observations from a re-analysis of the deposited data

Results flagged for a closer look

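Each result stands here because the effect of an injection differed between groups or between neighbouring stages by the edgeR test of that difference itself, on the log2 scale, with n = 2 libraries per group and shared WT libraries.

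The effect of E2F1 MO in OTX1 MO embryos minus its effect in embryos without OTX1 MO was -0.25 for ccnb1 (adjusted p = 0.031), 0.26 for ccnb2 (0.016) and 0.32 for ccne2 (0.0073) at stage 7. The call of ccnb1 was lost when 7 of the 8 libraries were left out in turn (adjusted p = 0.052 to 0.12). That of ccnb2 was lost without replicate 1 of WT (0.054) or replicate 2 of double MO (0.074), and that of ccne2 without replicate 2 of OTX1 MO (0.059) or replicate 1 of double MO (0.058). At stage 8 it was -0.27 for ccnb1.2 (0.006), -0.73 for ccnb3 (0.00029), -0.84 for ccnd2 (4.5e-05) and 0.70 for ccne2 (1.4e-07). At both stages the effect without OTX1 MO was taken against untreated WT. Injection itself and a joint effect of the morpholinos cannot be told apart in these values.

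The effect of E2F1 MO relative to WT at stage 7 minus that at stage 6 was 0.17 for ccna1 (adjusted p = 0.037), 0.36 for ccnb1 (0.0022), 0.29 for ccnb1.2 (0.0046) and -0.82 for ccnd1 (0.012). The call of ccna1 was lost with no filter (0.084) and without any one of 6 of the 8 libraries (0.068 to 0.22), and that of ccnd1 without any one of 3 (0.064 to 0.089). At stage 8 minus stage 7 it was 0.27 for ccnb2 (0.0093), 0.53 for ccnb3 (0.0068), 0.74 for ccnd1 (0.012), 0.50 for ccnd2 (0.011) and -0.51 for ccne2 (2.8e-05). The call of ccnd1 was lost without replicate 1 of WT stage 8 (0.053) or of E2F1 MO stage 7 (0.072), and that of ccnd2 without that E2F1 MO library (0.066).

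For E2F1 rescue, stage 7 minus stage 6 gave 0.25 for ccna1 (adjusted p = 0.0047), 0.37 for ccnb1 (0.0029), 0.33 for ccnb1.2 (0.002), -0.85 for ccnd1 (0.016) and 0.64 for ccne2 (2e-06). The call of ccna1 was lost without replicate 2 of WT stage 6 (0.064) and that of ccnd1 without any one of 3 libraries (0.07 to 0.099). Stage 8 minus stage 7 gave 0.19 for ccna1 (0.018), 0.22 for ccnb2 (0.037), 0.69 for ccnb3 (0.00088), 0.67 for ccnd1 (0.031) and -0.46 for ccne2 (0.00013). The call of ccna1 was lost with relative log expression factors (0.094), with fewer libraries (0.052) and without any one of 4 libraries (0.051 to 0.18). That of ccnb2 was lost with relative log expression factors (0.095), DESeq2 (0.082) and without any one of 7 (0.053 to 0.13), and that of ccnd1 with DESeq2 (0.062) and without any one of 6 (0.053 to 0.18).

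For OTX1 MO, stage 8 minus stage 7 gave 0.85 for ccnb3 (adjusted p = 5.6e-05) and 0.48 for ccnd2 (0.017), the second of which lost its call without any one of 3 libraries (0.065 to 0.097). For double MO it gave 0.79 for ccnb3 (0.00014), 0.67 for ccnd1 (0.034) and 0.41 for ccnd2 (0.048). The call of ccnd1 was lost with DESeq2 (0.055) and without any one of 6 of the 8 libraries (0.059 to 0.19). That of ccnd2 was lost with relative log expression factors (0.068), total counts (0.058), DESeq2 (0.094) and the replicate block (0.056), and without any one of 7 libraries (0.066 to 0.17).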

How the results depend on the processing

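Counts of members called moved by over 1.5 times as follows, and the cause was not tested. With total counts, 1 was called at WT stage 4 against stage 3 (0 as reported), 6 at WT stage 10 against stage 9 (11), 0 in E2F1 MO at stage 3 (3) and 1 in E2F1 rescue against WT at stage 6 (0). In the same setting 2 genes at WT stage 10 against stage 9 turned to a log2 change of -0.062 for ccna2 and -0.045 for ccne1. With relative log expression factors and with DESeq2, 6 and 8 were called at WT stage 6 against stage 5 (3), and 3 and 3 for the E2F1 rescue effect at stage 8 minus stage 7 (5). With no filter 0, with DESeq2 5 and with fewer libraries 7 were called in E2F1 MO at stage 4 (1), and DESeq2 called 1 in E2F1 rescue at stage 6 (0). Fewer libraries gave 0 in E2F1 MO at stage 3 (3), 8 in E2F1 rescue against E2F1 MO at stage 7 (4), 8 in double MO against E2F1 MO at stage 7 (5), 3 for the E2F1 MO effect at stage 5 minus stage 4 (0) and 5 for the double MO effect at stage 8 minus stage 7 (3).

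Leaving out 1 library, which reuses the dispersion trend of all libraries, gave 0 to 1 calls at WT stage 4 against stage 3, 1 to 3 at stage 6 against stage 5 and 5 to 7 at stage 8 against stage 7. Against WT it gave 0 to 2 in E2F1 MO at stage 3, 0 to 0 at stage 4 and 3 to 4 at stage 7, 5 to 8 in E2F1 rescue at stage 8, and 4 to 7 and 5 to 6 in double MO at stages 7 and 8. It gave 2 to 6 in E2F1 rescue against E2F1 MO and 2 to 4 in double MO against E2F1 MO at stage 8, and 0 to 1 in double MO against OTX1 MO at stage 7. The interaction at stage 7 had 1 to 3. Stage differences had 2 to 3 (E2F1 MO, stage 7 minus stage 6) and, at stage 8 minus stage 7, 3 to 5 in E2F1 MO, 2 to 4 in E2F1 rescue, 1 to 2 in OTX1 MO and 1 to 3 in double MO.

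The replicate block lost 3 calls, ccnb1 in E2F1 MO at stage 3 (adjusted p = 0.051), ccne1 in E2F1 rescue at stage 7 (0.055) and ccnd2 in the double MO effect at stage 8 minus stage 7 (0.056), and changed no other call. Replicate numbers are not stated to pair libraries, and the correlation of same-numbered deviations was -0.039 to 0.041 over 30 comparisons. Total counts moved the median of all genes by -0.24 at WT stage 10 against stage 9, -0.28 at stage 13 against stage 10 and 0.56 at stage 9 against stage 3, and relative log expression factors moved it by 0.20 and 0.25 at stage 13 against stages 10 and 3. DESeq2 gave no adjusted p in 15 cases. Low counts limit ccnd1 before stage 10 and ccnb1ip1 throughout.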
